A study of Mus musculus with 2 samples.

Results

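The regions described here are the 252 H3K4me3 regions, of 1381 in the deposited table (18.2%), that held the most H3K9me3 in control cells. They were chosen by their control value alone, at 0.16 RPM (reads scaled to library size) or more, which equals 4 or more control reads, and they belong to 243 of the 1296 genes in the table. H3K9me3 (trimethylation of lysine 9 of histone H3) was mapped by ChIP-seq, the sequencing of DNA recovered with an antibody to the mark. The cells were LSK cells, a sorted bone marrow population without lineage markers but with Sca-1 and c-Kit, which contains the blood stem cells. The knockout group was 1 library from mice of the C57BL6 strain carrying conditional alleles of Kdm4a, Kdm4b and Kdm4c, and the control group was 1 library from C57BL6 mice labelled as wild-type controls. Both groups received tamoxifen, which induces the deletion of the 3 genes, and cells were sorted 2 weeks later. The driver of the recombinase, the age of the mice and the number of mice behind each library could not be taken from the labels.

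H3K9me3 is written by methyltransferases such as Setdb1 and Suv39h1, is bound by HP1 proteins and marks silenced chromatin, among it pericentromeric repeats, endogenous retroviruses and clusters of zinc finger genes. H3K4me3 marks the start sites of active or poised genes, and the 2 marks are usually found apart. The KDM4 demethylases remove methyl groups from H3K9me3, and several of them carry Tudor domains that bind H3K4me3, the mark of start sites.

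The table holds only regions whose deposited ratio of knockout to control exceeds 2 (lowest 2.01) and that hold at least 1 control read, so a region could not be listed here with equal levels or with a lower knockout level. Since each group is a single library, differences could not be set against variation between mice, nothing was tested, and the intervals given cover counting error only. The libraries held 26061344 reads for the knockout and 24673463 for the control, so that 1 read equals 0.0384 RPM in the knockout and 0.0405 RPM in the control library. No input library is analysed here, so whether any of these levels lay above background was not tested. A level of the mark in all cells and a higher level in a part of the cells cannot be told apart. The table gives no expression: of 15 marker genes of stem and progenitor cells only Ly6a (Sca-1) had a listed region, which was not among the 252. None of 17 markers of other blood cells and none of the 3 deleted genes had a listed region, so neither the sort nor the deletion can be checked on these values.

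The promoter sequences of 6 genes are shown because the results turn on their regions. The Orc2 region had the most control reads of the table, 2810474O19Rik (Resf1 in RefSeq) and Aim2 were among the 8 regions with the most, Znrd1 had the highest ratio among regions with 9 control reads, Mtif2 had one of the highest ratios of the 252, and Zfp709 had one of the lowest. Each sequence is the 250 bases before the gene's start in RefSeq (assembly GRCm38.p6), 5′ to 3′ on the gene's strand, with CpG dinucleotides in capitals, and each shares bases with the gene's H3K4me3 region.
Orc2, chr1:58505110-58505359, minus strand: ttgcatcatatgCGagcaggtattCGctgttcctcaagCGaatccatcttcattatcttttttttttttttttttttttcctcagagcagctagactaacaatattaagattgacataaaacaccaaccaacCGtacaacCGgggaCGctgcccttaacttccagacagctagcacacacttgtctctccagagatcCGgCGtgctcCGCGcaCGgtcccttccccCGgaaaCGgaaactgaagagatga
2810474O19Rik, chr6:149309164-149309413, plus strand: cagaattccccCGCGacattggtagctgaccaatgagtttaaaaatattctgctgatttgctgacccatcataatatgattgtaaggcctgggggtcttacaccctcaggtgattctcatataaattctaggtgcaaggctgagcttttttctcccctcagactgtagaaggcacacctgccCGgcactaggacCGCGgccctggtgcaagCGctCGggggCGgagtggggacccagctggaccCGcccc
Aim2, chr1:173420354-173420603, plus strand: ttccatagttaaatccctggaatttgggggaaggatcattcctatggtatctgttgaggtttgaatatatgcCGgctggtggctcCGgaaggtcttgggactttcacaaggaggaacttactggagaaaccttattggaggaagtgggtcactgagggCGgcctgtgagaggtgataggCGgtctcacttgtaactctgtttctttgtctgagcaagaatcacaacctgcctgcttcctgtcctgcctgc
Znrd1, chr17:36958526-36958775, minus strand: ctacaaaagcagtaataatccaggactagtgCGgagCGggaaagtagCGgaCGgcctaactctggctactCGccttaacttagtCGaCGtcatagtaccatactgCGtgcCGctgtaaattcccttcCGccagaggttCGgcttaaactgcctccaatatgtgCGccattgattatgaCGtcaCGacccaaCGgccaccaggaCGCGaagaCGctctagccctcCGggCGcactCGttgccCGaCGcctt
Mtif2, chr11:29526147-29526396, plus strand: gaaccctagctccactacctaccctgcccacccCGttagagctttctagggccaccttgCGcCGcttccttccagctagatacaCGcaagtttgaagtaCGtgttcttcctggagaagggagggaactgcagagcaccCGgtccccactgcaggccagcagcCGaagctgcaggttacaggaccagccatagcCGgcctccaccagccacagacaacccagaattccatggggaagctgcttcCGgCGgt
Zfp709, chr8:71881818-71882067, plus strand: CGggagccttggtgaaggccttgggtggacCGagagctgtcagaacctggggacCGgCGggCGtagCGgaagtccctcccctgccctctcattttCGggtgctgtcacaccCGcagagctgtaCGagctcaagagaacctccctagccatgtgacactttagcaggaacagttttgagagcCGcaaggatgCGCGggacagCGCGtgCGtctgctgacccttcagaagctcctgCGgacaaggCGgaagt

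The 6 sequences differed in base composition. Znrd1 held 23 CpG dinucleotides and Zfp709 held 17, Orc2 held 13, Mtif2 held 10, 2810474O19Rik held 9 and Aim2 held 4, beside a median of 6 (quartiles 2 and 16) over the 32851 RefSeq promoter windows of the same length. The G+C content ran from 46.0% at Orc2 to 61.6% at Zfp709, beside a median of 52.4% over all windows. Of 4 core promoter motifs searched on both strands, TATAAA was found in 2810474O19Rik and in 12.4% of all windows. CCAAT was found in 2810474O19Rik, Aim2 and Znrd1 and in 33.8% of all windows. GGGCGG was found in 2810474O19Rik and Aim2 and in 32.7% of all windows, and CCGGAAG in Aim2 and Mtif2 and in 6.91% of all windows. Matches of different motifs were counted separately and may overlap. Promoter windows were found for 192 of the 252 regions (76.2%), below the 80% set for a comparison, so base composition was not compared between the 252 regions and the others.

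Levels were low even in these regions. Control reads ran from 4 to 32 with a median of 5 (quartiles 4 and 7), or 0.203 RPM, and the other 1129 regions held 1 to 3. Knockout reads ran from 9 to 77 with a median of 16 (quartiles 12 and 22), or 0.614 RPM, against a median of 5 (quartiles 4 and 8), or 0.192 RPM, in the other regions. A ratio above 2 requires at least 9 knockout reads with 4 control reads, but 3 with 1 control read. The selection therefore builds in a higher knockout level here, and nothing is read from this difference. Only 27 regions held 10 or more control reads and 4 held 20 or more, and 94 sat at the threshold of 4. Together the 252 regions held 4855 knockout reads (186 RPM) and 1587 control reads (64.3 RPM), which were 39.6% of the knockout reads and 47.0% of the control reads of the whole table. Their joint ratio was 2.90 (95% counting interval 2.74 to 3.07), beside 3.91 (3.71 to 4.12) in the other regions and 3.43 (3.31 to 3.57) in all. The rule used the control value, which is the denominator of this ratio, and with 1 control read no ratio below 2.84 could be listed, so nothing is read from the lower joint ratio of the 252.

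**Figure D1:**
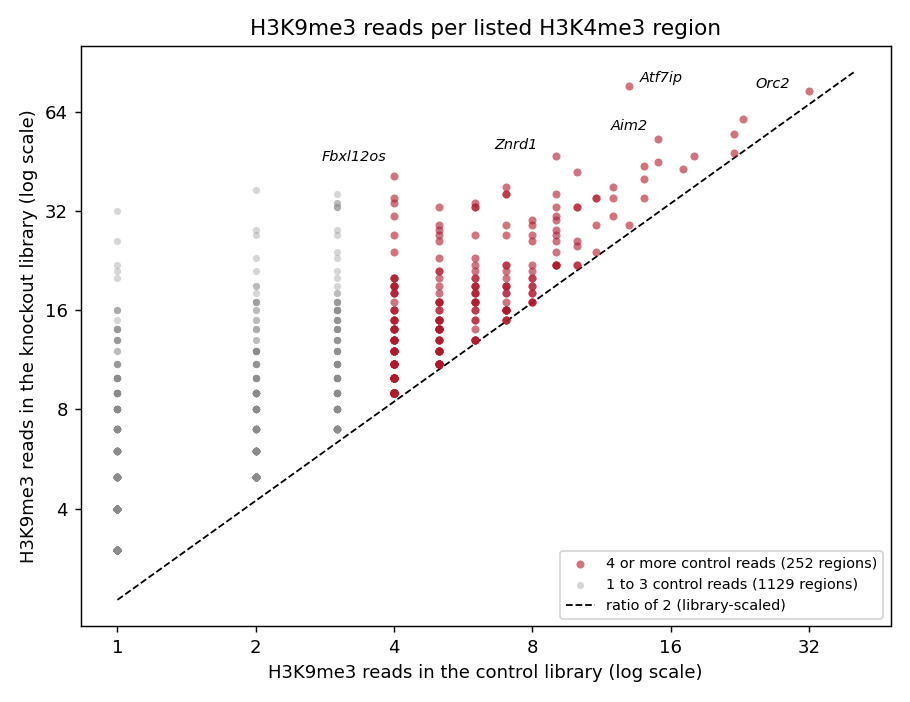
H3K9me3 reads in the knockout library (vertical, log scale) against the control library (horizontal, log scale) for all 1381 regions, 1 point per region with darker points where regions coincide. Red points are the 252 regions with 4 or more control reads and grey points the 1129 others; all lie above the dashed line, a ratio of 2, by which the table was selected.

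The regions with the most control H3K9me3 were also high in the knockout library. The 10 regions with the most knockout reads were all among the 252, as were 18 of the top 20, 79 of the top 100 and 170 of the top 252 (67.5%). In 16 of them knockout reads exceeded 37, the highest value of the other regions. Within the 252, the reads of both libraries had a Spearman's rho of 0.73, a description over 252 regions that share the same 2 libraries; the selection on the ratio ties both values together, since a region with more control reads needs more knockout reads to be listed.

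The highest control level of the table was at Orc2, which encodes a subunit of the origin recognition complex that marks origins of DNA replication. Its region (chr1:58505087-58505746, mm10, spanning the start site with its centre upstream) held 74 knockout reads (2.84 RPM) and 32 control reads (1.30 RPM), a ratio of 2.19 (1.43 to 3.43). With an H3K4me3 height of 30.5 RPKM, Orc2 was also among the 6 highest of the 252 regions for that mark. Next came 6820431F20Rik, a transcribed pseudogene (chr8:20296102-20298913), with 61 knockout and 23 control reads, a ratio of 2.51 (1.53 to 4.25). Its region was the widest of the 252, at 2812 bp. A pseudogene resembles other loci, and how reads with several matches were treated is unknown, so its value is uncertain. At Orc2 and 6820431F20Rik a boundary of a second RefSeq gene lay within 1 kb of the region's centre. The same holds for 4930592C13Rik, Tug1 and Atf7ip below, and for Qtrt2, Akip1, 9430065F17Rik, Rrn3, Znrd1, Nop14, Clns1a and Exo1 further on. The levels of all these regions cannot be assigned to 1 gene alone.

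Tsnax, which encodes the RNA-binding partner of translin (chr8:125013344-125013937, within the gene), held 55 knockout and 22 control reads, a ratio of 2.37 (1.42 to 4.08). The long non-coding RNA gene 4930592C13Rik (chr3:157533724-157534063) held 48 and 22 reads, a ratio of 2.07 (1.22 to 3.59). These 4 regions were the only ones with 20 or more control reads, and their ratios lay in the lower part of the table. Tug1, a long non-coding RNA gene expressed in many tissues (chr11:3647959-3648650, within the gene), held 47 knockout and 18 control reads, a ratio of 2.47 (1.41 to 4.52).

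Atf7ip, which encodes the partner that stabilizes the H3K9 methyltransferase Setdb1, held 77 knockout reads (2.95 RPM) and 13 control reads (0.527 RPM), a ratio of 5.61 (3.09 to 11.0), in a region within the gene (chr6:136518957-136519755). That knockout value was the highest of the table. 2810474O19Rik, named Resf1 in RefSeq for its role in silencing retroelements, held 43 and 17 reads at chr6:149308741-149309292, upstream, a ratio of 2.39 (1.34 to 4.48). Zfp451, which encodes a SUMO ligase, held 35 and 14 reads (chr1:33815105-33815452, upstream), a ratio of 2.37 (1.24 to 4.76). Of 30 genes on the list for H3K9 and DNA methylation, 3 had a region in the table. Atf7ip alone of these 3 was among the 252, beside 18.2% of all listed regions. Resf1 and Zfp451 were not on that list and are set beside it after their values were seen.

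Aim2, a sensor of DNA in the cytosol that starts inflammasome assembly, held 53 knockout and 15 control reads (chr1:173420398-173421604), a ratio of 3.35 (1.86 to 6.39). Of 9 listed regions of genes on a list of 62 interferon-inducible and DNA sensing genes, only that of Aim2 was among the 252. This was 11.1%, beside 18.2% of all listed regions. The list is not complete, so other genes of this kind may be among the 252, and nothing is read from this share. The region next to the microRNA gene Mir5103 (chr1:34432517-34432864, downstream) held 45 and 15 reads, a ratio of 2.84 (1.55 to 5.49). The mature RNA of that gene is given here with its seed, bases 2 to 8, in capitals, since it was the highest of the 3 microRNA genes among the 252.
mmu-miR-5103, 5′ to 3′: uCAUCCGGgauccccugagg

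Further genes completed the 15 with the most control reads. AI506816, a long non-coding RNA gene, held 44 knockout and 14 control reads, a ratio of 2.98 (1.60 to 5.88), and Fbxo47, an F-box gene, held 40 and 14, a ratio of 2.70 (1.44 to 5.38). Gm4841 held 29 and 13 reads, a ratio of 2.11 (1.06 to 4.43). The zinc finger gene Zfp33b held 38 and 12 reads, a ratio of 2.998 (1.53 to 6.30), and Rbfa, which encodes a factor that matures the mitochondrial ribosome, held 35 and 12, a ratio of 2.76 (1.40 to 5.84). For each of the 15 regions the lower counting limit lay above 1, beside 21.1% of all 1381 regions. For Atf7ip alone among them it lay above 2, beside 3.48% of all. Listed regions all have ratios above 2, and with this many control reads most intervals then lie above 1. This was so in 24 of the 27 regions with 10 or more control reads, so nothing is read from these limits.

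**Figure D2:**
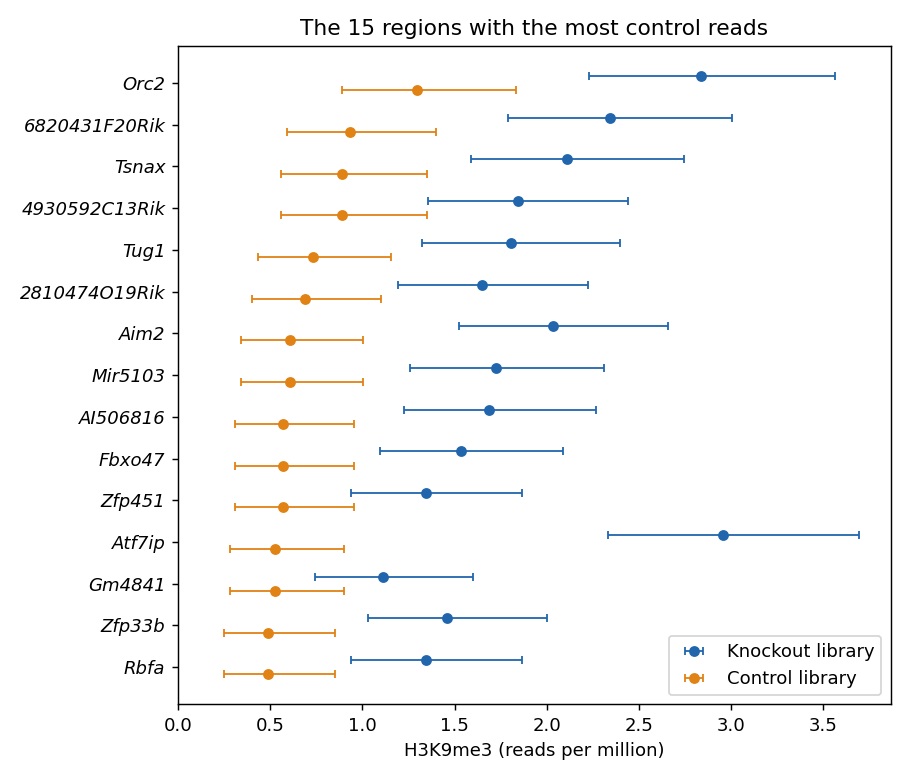
H3K9me3 in RPM (horizontal) in the knockout and the control library for the 15 regions with the most control reads, ordered by control reads; bars are exact 95% Poisson intervals of 1 library each. Atf7ip is highest in the knockout library at 2.95 RPM and Orc2 in the control library at 1.30 RPM.

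The ratio was lower in the 252 regions than in the others, a comparison that the rule and the selection both touch. The median ratio was 2.60 (quartiles 2.20 and 3.22), against 3.31 (2.84 and 4.73) in the other regions. Whole reads limit the ratios that can occur. With 1 control read the lowest ratio above 2 is 2.84, with 2 it is 2.37, with 3 it is 2.21 and with 4 it is 2.13, so a region with few control reads cannot be listed with a ratio just above 2. A ratio of 3 or more was found in 83 of the 252 regions (32.9%), beside 50.0% of all 1381. The counting interval lay above 1 for 120 of the 252 (47.6%), beside 21.1% of all, and above 2 for 16 (6.35%), beside 3.48% of all. Regions with more reads have narrower intervals, so nothing is read from these shares. Among the 252, control reads and the ratio had a Spearman's rho of -0.06.

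**Figure D3:**
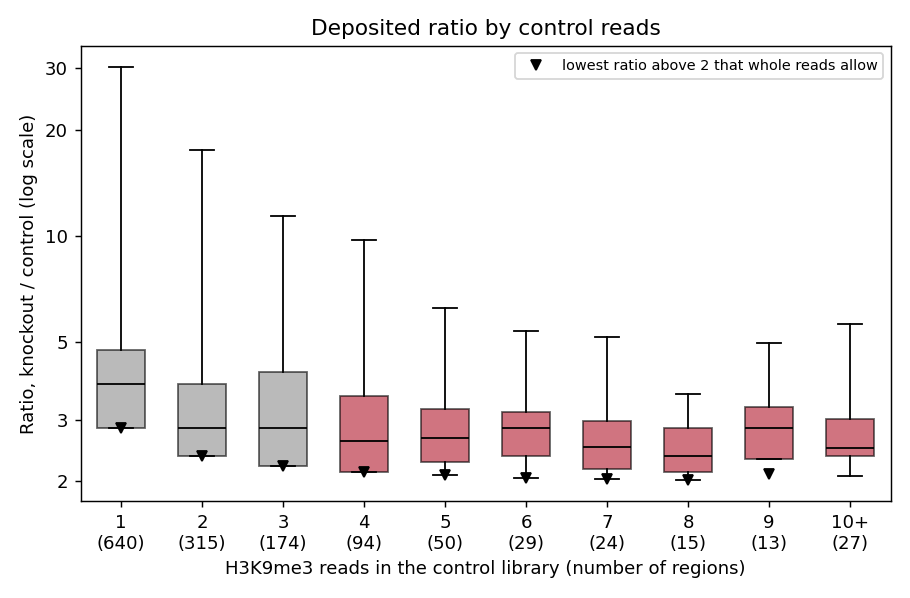
Deposited ratio of knockout to control (vertical, log scale) by the number of control reads (horizontal, number of regions in brackets); boxes are quartiles with the median, whiskers the range, red boxes the 252 regions. Triangles mark the lowest ratio above 2 that whole reads allow, 2.84 with 1 control read and 2.13 with 4.

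The 6 highest ratios of the 252 regions all came from regions with 4 or 5 control reads. Fbxl12os, a pseudogene transcribed from the strand opposite the F-box gene Fbxl12, held 41 knockout and 4 control reads (chr9:20606731-20607842), a ratio of 9.70 (3.51 to 37.3). Mtif2, the mitochondrial translation initiation factor, held 35 and 4 reads upstream (chr11:29525677-29526263), a ratio of 8.28 (2.96 to 32.1), and 16 and 5 reads in a second region within the gene, a ratio of 3.03. Stam2, an adaptor of endosomal sorting, held 34 and 4 reads, a ratio of 8.05 (2.87 to 31.2), and Qtrt2, a subunit of the enzyme that places queuosine in transfer RNA, held 31 and 4, a ratio of 7.34 (2.59 to 28.6). Akip1, a protein kinase A interacting gene, held 27 and 4 reads, a ratio of 6.39 (2.23 to 25.1). Mterf1a, which encodes a mitochondrial transcription termination factor, held 33 and 5, a ratio of 6.25 (2.42 to 20.5). The lower counting limit of these 6 lay above 2, as it did in 3.48% of all 1381 regions. These 6 were picked for their ratios, from a table that was itself selected on the ratio. The intervals take no account of either choice, so nothing is read from these limits.

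The 6 lowest ratios came from regions with 7 or 8 control reads. The aldo-keto reductase gene Akr1c13, Jagn1, which encodes an endoplasmic reticulum protein needed by neutrophils, and the upstream region of the zinc finger gene Zfp709 each held 17 knockout and 8 control reads, a ratio of 2.01 (0.82 to 5.39). The pseudogene 1810014B01Rik, the glucose transporter gene Slc2a12 and the zinc finger gene Zfp59 each held 15 and 7 reads, a ratio of 2.03 (0.78 to 5.88). Equal levels lay within these intervals. Akr1c13 and Zfp59 have close relatives in the genome, so their reads could be shared with copies.

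At the threshold, the 94 regions with 4 control reads held a median of 11 knockout reads and the 174 regions with 3 held a median of 9. A ratio above 2 requires at least 9 knockout reads in the former and 7 in the latter. The 4 regions with 4 control reads and the most knockout reads were Fbxl12os, Mtif2, Stam2 and Qtrt2, given above. Just below the threshold, with 3 control reads, Crlf2, a cytokine receptor gene, held 36 knockout reads, 1700028E10Rik and Rwdd1 held 34 each, and Elob, which encodes elongin B, held 33. These values overlap, and 1 control read decides on which side a region falls. Of the 243 genes, 30 had another listed region with fewer than 4 control reads. Zfp33b was an example, with 33 and 3 reads in its second region against 38 and 12 in the first, and 1700028E10Rik had 15 and 5 reads in its region among the 252. Rbfa held 14 and 1 reads in its other region (ratio 13.3) and Hdac2 held 10 and 2 (4.73). In theirs, Zfp451 held 6 and 2 (2.84) and 9530068E07Rik held 7 and 2 (3.31).

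The genes with 2 regions among the 252 were 9: Exosc3, Gtpbp6, Med6, Mfsd1, Mtif2, Nom1, Poli, Tasp1 and Zfp709. These pairs share a start site and are not independent. Gtpbp6, which encodes a GTP-binding protein, held 24 knockout and 11 control reads in one region and 22 and 7 in the other. Poli, which encodes a DNA polymerase of translesion synthesis, held 27 and 9 reads in one and 11 and 4 in the other. Zfp709 held 30 and 9 reads in the region within the gene, a ratio of 3.16 (1.46 to 7.56), beside 17 and 8 upstream. Tasp1, which encodes the protease taspase 1, held 33 and 6 in one and 18 and 4 in the other. Within each of these pairs the counting intervals of both ratios overlap.

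Zinc finger genes were the largest of the protein families counted. Regions of genes with a Zfp symbol made up 20 of the 252 (7.94%, exact 95% interval 4.92 to 12.0), against 48 of the 1129 others (4.25%, 3.15 to 5.60). These are descriptions, since regions of one cluster are not independent and the intervals overlap. Stated the other way, 20 of 68 listed Zfp regions (29.4%) reached 4 control reads, beside 18.2% of all. Their 20 regions of 19 genes held 430 knockout and 142 control reads, a joint ratio of 2.87 (2.37 to 3.49), close to the 2.90 of all 252, and the ratio reached 3 in 8 of the 20, beside 32.9% of the 252 and 50.0% of all 1381. Zfp451, Zfp33b and Zfp445 held the most control reads. Zfp445, which encodes a KRAB zinc finger protein that guards imprinted regions together with Zfp57, held 42 and 10 reads, a ratio of 3.98. With Zbtb21 and Zscan12 added, zinc finger symbols made up 22 regions (8.73%), against 55 of the others (4.87%). Family members can be near-identical, and single values are uncertain for that reason.

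Of the 252 regions, 39 (15.5%) lay within 500 kb of another of the 252 that belonged to a different gene, as did 207 of the 1129 others (18.3%). Runs of 3 or more genes spaced within 500 kb were found 4 times. On chromosome 13, Zfp458 held 27 knockout and 7 control reads (ratio 3.65), the long non-coding RNA gene 9430065F17Rik held 18 and 7 (2.43) and Zfp729b held 14 and 6 (2.21). These 3 start sites spanned 341 kb, with 20 to 22 other zinc finger genes within 500 kb of each. On chromosome 9, Zfp560 held 19 and 4 reads (4.50), Zfp846 held 29 and 8 (3.43) and Fbxl12os held 41 and 4 (9.70), within 222 kb. On chromosome 8, Zfp709 and Zfp882, the second with 21 and 7 reads (2.84), were followed by Rab8a, which encodes a GTPase of vesicle transport, with 10 and 4 reads (2.37). On chromosome 16, Zbtb21 held 17 and 4 reads (4.02), B230307C23Rik held 13 and 4 (3.08) and the long non-coding RNA gene A630089N07Rik held 10 and 4 (2.37), within 120 kb and with at most 1 other zinc finger gene near. At least 3 other zinc finger genes within 500 kb were found for 8 of 230 regions (3.48%) of genes without a zinc finger symbol, against 50 of 1074 (4.66%) among the others.

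Non-coding genes formed the other large class. Long non-coding RNA genes held 21 of the 252 regions (8.33%, 5.23 to 12.5), against 50 of the others (4.43%, 3.30 to 5.80), and with microRNA and small nucleolar RNA genes the count was 25 (9.92%), against 70 (6.20%). Their 25 regions held 533 knockout and 193 control reads, a joint ratio of 2.61 (2.21 to 3.10). A ratio of 3 or more was found in 4 of these 25, beside 78 of 222 regions of protein-coding genes among the 252 and 50.0% of all 1381 regions. Transcribed pseudogenes held 5 regions (1.98%, 0.65 to 4.57), against 6 of the others (0.53%, 0.20 to 1.15): 6820431F20Rik, Magef1, 1810014B01Rik, Fbxl12os and Gm20257. Protein-coding genes held 222 of the 252 (88.1%), against 1053 of 1129 (93.3%).

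**Figure D4:**
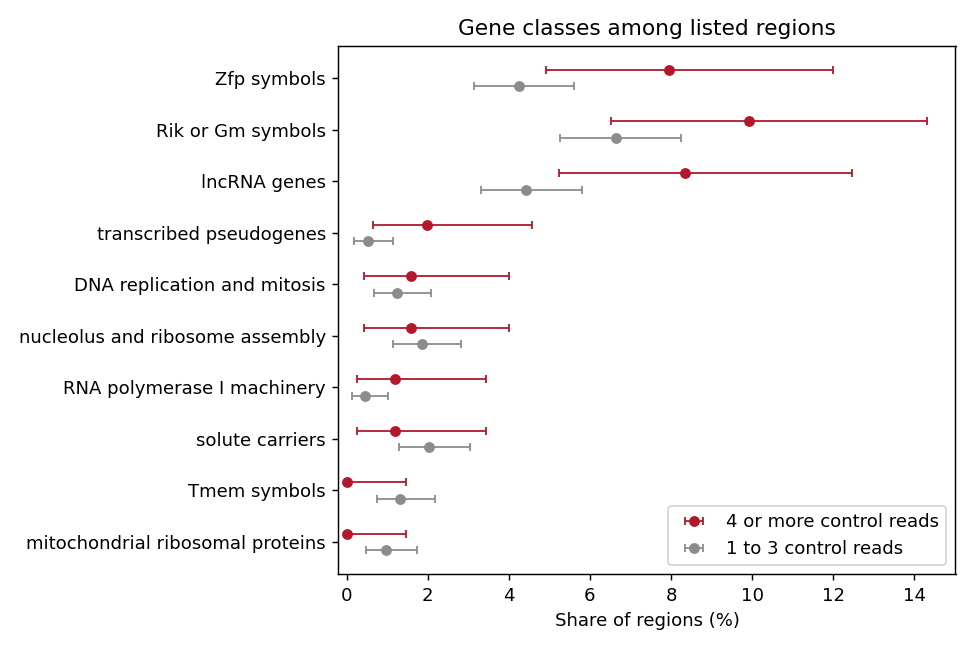
Share of regions (horizontal, %) that belong to each gene class, for the 252 regions with 4 or more control reads and the 1129 with 1 to 3; bars are exact 95% binomial intervals, which take no account of regions that share a gene or cluster. Zfp genes make up 7.94% and 4.25%, and long non-coding RNA genes 8.33% and 4.43%.

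Of the lists of housekeeping functions, DNA replication and mitosis had 4 of its 18 listed regions among the 252, beside 18.2% of the table. These were Orc2, the mitotic kinase gene Plk1 with 23 knockout and 5 control reads (4.36, 1.62 to 14.7), and 2 subunits of the anaphase-promoting complex, Cdc23 with 13 and 6 (2.05) and Anapc4 with 9 and 4 (2.13). The RNA polymerase I list had 3 of its 8 listed regions among them. These were Znrd1, a polymerase subunit, with 47 and 9 reads (chr17:36958597-36959510, 4.94, 2.40 to 11.5), the initiation factor gene Rrn3 with 23 and 6 (3.63) and Taf1b with 18 and 8 (2.13). Another listed Znrd1 region, within the gene, held only 4 knockout reads and 1 control read (3.79, 0.37 to 186). A boundary of a second RefSeq gene lay within 1 kb of the centre of both Znrd1 regions. Taf1b and Nom1, the second on the ribosome assembly list, are genes that the study itself singled out. Ribosome assembly had 4 of 25, of 3 genes, led by Nop14, a factor of the small subunit, with 33 and 6 reads (5.21, 2.15 to 15.2). The solute carriers had 3 of 26, with Slc2a12 the highest in control reads.

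Some small lists had no region among the 252, beside 18.2% of the whole table. These were mitochondrial ribosomal proteins with 11 listed regions, Tmem genes with 15 and cytosolic aminoacyl-tRNA synthetases with 7. A count of 0 among 252 allows a share of up to 1.45% (exact 95% interval). The shares of these lists among the other regions were 0.97%, 1.33% and 0.62%, all below that bound, so no difference is read from these counts. Cytoplasmic ribosomal proteins had 2 of 15, Rpl37a with 15 knockout and 4 control reads and Rps26 with 12 and 4. Leukocyte receptor families had 1 of 4, the inhibitory receptor gene Lair1, with 13 and 6 reads. These small counts were not tested against the share of the whole table.

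The H3K4me3 signal of the 252 regions was slightly lower and narrower than that of the others. Its height, deposited as H3K4me3 RPKM, had a median of 10.2 (quartiles 8.24 and 14.0) against 11.2 in the others. The difference between the median heights was -0.952 RPKM, but -0.640 with 3 or more control reads and -0.708 with 5 or more. With 1 region per gene it was -1.16. The widths had a median of 604 bp (421 and 852) against 696 bp (491 and 961), and 28 of the 252 (11.1%) were 350 bp wide or less, against 56 of the others (4.96%). The difference between the median widths was -92.5 bp, but -55 bp for regions chosen by 3 or more control reads and -44.5 bp for those chosen by 5 or more. The ranges overlap nearly fully, and no test over regions was made. Control reads showed almost no relation to width (Spearman's rho -0.07) or height (-0.07) over all 1381 regions. Per kb of region the 252 held a median of 9.18 control reads, against 2.02 in the others, which restates the rule, since it used control reads. Of the 252 regions with the most control reads per kb, 196 (77.8%) were the same regions.

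**Figure D5:**
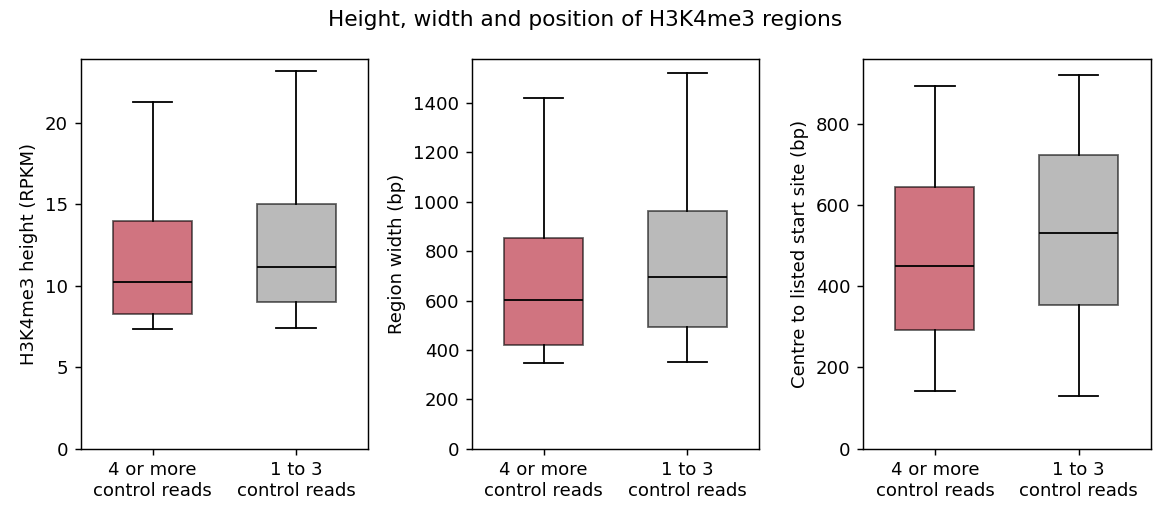
H3K4me3 height in RPKM, width in bp and distance from the region's centre to the listed start site in bp for the 252 regions with 4 or more control reads and the 1129 with 1 to 3; boxes are quartiles with the median, whiskers the 5th and 95th percentiles. The median heights are 10.2 and 11.2 RPKM, the median widths 604 and 696 bp and the median distances 449 and 531 bp.

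The 6 highest H3K4me3 regions of the 252 were those of Mbd1, Clns1a, Zfp74, Orc2, Hdac2 and 9530068E07Rik. Mbd1, which encodes a protein that binds methylated CpG, had a height of 39.8 RPKM with 19 knockout and 4 control H3K9me3 reads, a ratio of 4.50 (1.49 to 18.2). Clns1a, a cofactor in the assembly of splicing particles, had 34.0 RPKM with 15 and 4 reads, and Zfp74 had 31.3 RPKM with 9 and 4. The histone deacetylase gene Hdac2 had 28.9 RPKM with 15 and 6 reads, and 9530068E07Rik had 27.7 RPKM with 29 and 7, a ratio of 3.92 (1.68 to 10.6). The lowest heights were at Plk1, Zfp518b, the telomere protein gene Pot1a, Wdr4, the beta-defensin gene Defb3 and 4930592C13Rik, from 6.63 to 6.77 RPKM. Wdr4, a subunit of a transfer RNA methyltransferase, held 26 and 8 reads, Pot1a 14 and 4, Zfp518b 12 and 5, and Defb3 9 and 4. So regions high and low in H3K4me3 both reached 4 control reads. Height and ratio had a Spearman's rho of 0.20 within the 252.

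The 252 regions lay somewhat closer to start sites. The centre was a median of 449 bp (quartiles 293 and 645) from the listed start site, against 531 bp (354 and 724), and within 500 bp in 148 cases (58.7%, 52.4 to 64.9), against 504 (44.6%, 41.7 to 47.6). It lay upstream in 122 (48.4%), within the gene in 128 (50.8%) and downstream in 2, against 478 (42.3%), 641 (56.8%) and 10. The region spanned the start site in 64 (25.4%), against 261 (23.1%). A boundary of a second RefSeq gene, at either end, lay within 1 kb of the centre in 49 (19.4%, 14.7 to 24.9), against 319 (28.3%, 25.6 to 31.0), a measure added after the data were seen. Around the 252 regions a median of 12 other protein-coding genes lay within 500 kb, against 13 around the others.

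The regions were spread over 20 chromosomes. The share of listed regions that reached 4 control reads was highest on chromosome 16, with 14 of 50 (28.0%), and chromosome 5, with 25 of 96 (26.0%). It was lowest on the X chromosome, with 2 of 19 (10.5%), and next on chromosome 15, with 5 of 44 (11.4%), and chromosome 7, with 13 of 113 (11.5%). These shares were not tested.

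The following genes were picked by hand after their values were seen, from no fixed list, and stand for no group. Fancl, the ubiquitin ligase of the Fanconi anaemia pathway, held 24 knockout and 9 control reads (2.52), the recombination gene Xrcc2 held 18 and 6 (2.84), the nuclease genes Ercc4 and Exo1 held 15 and 5 (2.84) and 15 and 4 (3.55), and Hpf1, a cofactor of PARP1, held 29 and 5 (5.49). Stil, a centriole assembly gene, held 36 and 9 reads (3.79). Tfam, which packages mitochondrial DNA, held 18 and 4 reads (4.26), Cox5a, a subunit of cytochrome c oxidase, held 22 and 7 (2.98), and Atp5g1, a subunit of ATP synthase, held 21 and 5 (3.98). The knockout value exceeded the control value in each, which the table requires.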

How the data were processed

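A single deposited table was used, in which each H3K4me3 region has 1 H3K9me3 value for the knockout and 1 for the control library. Per the submitters' processing notes, Trimmomatic and Bowtie2 were used with the mouse build mm10; neither the region caller nor the counting window nor the treatment of reads with several matches is stated there. The H3K9me3 values were deposited as normalized values, read as RPM; all (100.0%, tolerance 0.01 reads) are whole multiples of 1 step per library, which gave whole reads and library totals. Values per kb of a fixed 1 kb window would look the same. The deposited ratio equals knockout RPM over control RPM. The authors gave each region an H3K4me3 height in RPKM from a library that is not analysed here; 11 other caller columns stayed unused.

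The members and gene lists were chosen with earlier results of these data known. Named regions were, among the 252, the 15 with the most control reads, the 6 highest and lowest ratios, the 6 with the most knockout reads, the 6 highest and lowest H3K4me3 heights, the leader of each list with at least 3 regions, genes in runs of 3 or more within 500 kb, and up to 4 regions on each side of the threshold. Ratio intervals are exact binomial (Clopper-Pearson) at 95%, scaled by library totals, and their coverage was checked on simulated data. The simulated regions were not selected on the ratio as the listed regions were, so coverage under that selection was not checked. Intervals for reads in 1 library are exact Poisson and were not checked on simulated data. All 252 regions matched RefSeq (GRCm38.p6), 249 by accession, and gene biotypes come from it. Python 3.11.15, scipy 1.17.1 and pandas 2.3.3 were used.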

Additional observations from a re-analysis of the deposited data

How the results depend on the processing

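No paired analysis was possible because the study has a single knockout and a single control library, which also leaves no replicate to drop. The joint ratio of 2.90 stayed within its counting interval under all 7 alternatives run, 2 of them chosen after seeing the data, and ran from 2.82 with 5 or more control reads to 3.05 with 3 or more. The median ratio of 2.60 was 2.38 after adding 1 control read in RPM to both libraries. The count of 83 regions with a ratio of at least 3 became 143 at 2.5, 32 at 4, and 55 after adding that read. At 99% confidence, 70 rather than 120 regions kept the interval above 1. The 39 regions near another became 66 at 1000 kb. The differences in height, width and Zfp share kept their sign under every alternative run, but the width difference of -92.5 bp was -55 bp with 3 or more control reads and -44.5 bp with 5 or more, and the Zfp difference of 3.68 percentage points was 5.87 with 5 or more. The difference in control reads per kb is fixed in sign by the rule. Promoter base composition was not compared because too few promoters matched. Single values are limited by depth, since 107 of the 252 regions had under 20 reads over both libraries.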
